A study of Mus musculus with 20 samples.

Results

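The genes described here are 10 immediate early transcription and stress genes of the mouse, namely Egr1, Fos, Jun, Junb, Atf3, Maff, Klf6, Ier3, Phlda1 and Dusp1. They were chosen by name, with earlier results of these data known. The array reads 18193 genes with probe sets assigned to a single gene, and every such probe set of the 10 genes was taken. That gave 15 probe sets, of which 14 were bright enough to be tested. Total RNA from whole testes of the inbred mouse strains AKR/N and C57BL/6, all aged 8 weeks, was measured. Heated testes were collected 8, 10, 12 or 24 h after a heat shock of 43 °C for 15 min, and unheated testes of the same strain served as controls. The groups were AKR/N 8 h, 10 h, 12 h, 24 h and control, and C57BL/6 8 h, 10 h, 12 h, 24 h and control, with 2 arrays each and 20 arrays in all. No transgene or deletion is named for either strain.

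Immediate early genes are switched on within minutes of a stimulus, from transcription factors already present in the cell and without new protein synthesis. Growth factors, cytokines and stresses such as heat reach them largely through MAP kinases and through factors that bind serum response elements and cAMP response elements in their promoters. Many of their messengers are short-lived, so that levels usually fall soon after the stimulus ends. In the testis, spermatocytes are the germ cells most easily harmed by heat, and the organ is kept below body temperature.

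The controls carry no sampling time of their own, so heat and the time of collection cannot be told apart. The submitters do not state that the arrays of a group came from different mice, and the p-values may therefore reflect technical spread alone. Because whole organs were measured, fewer cells of a type and less RNA per cell cannot be told apart. Values are array signals on a linear scale, and changes are differences of log2(signal + 16), which understate the change of dim genes. Signals are compared within a gene and not between genes, since probe sets differ in how strongly they hybridise. A gene was called at a limma adjusted p under 0.05, adjusted over all 28000 probe sets tested, by its brightest probe set.

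The array medians ran from 24.9 to 34.9, and replicate arrays correlated across probe sets with r from 0.963 to 0.984. For beta-actin, the ratio of 3' to 5' probe signal, which rises as RNA degrades, lay between 1.87 and 3.57. Its highest value and the highest median both belonged to C57BL/6 12 h replicate 2. That array was also above replicate 1 of its group in 9 of the 10 genes, Phlda1 being the exception. Where a call at 12 h in C57BL/6 was lost without that array, the value without it is given too. Defining markers of the testis were present on every array, with Prm1, a sperm nuclear protein, at 8847 to 11483, Sycp3, a protein of meiotic chromosomes, at 1430 to 2710, Star, which brings cholesterol into Leydig cell mitochondria, at 75.7 to 988, and Clu, a product of Sertoli cells, at 3843 to 7365.

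Promoter sequence is shown for Jun, Klf6 and Dusp1 because the letters TGACNTCA were found close to their start sites. These are a looser form of the cAMP response element TGACGTCA, the site bound by ATF and CREB factors. Among the genes shown only Dusp1 has the full element, and Jun and Klf6 read TGACATCA. Stretches are from RefSeq on build GRCm38.p6, read 5′ to 3′ on the strand of the gene, and capitals mark the match to TGACNTCA. The Jun stretch lies at chr4:95052223-95052342 on the minus strand, the Klf6 stretch at chr13:5861360-5861479 on the plus strand and the Dusp1 stretch at chr17:26508506-26508625 on the minus strand.
Jun: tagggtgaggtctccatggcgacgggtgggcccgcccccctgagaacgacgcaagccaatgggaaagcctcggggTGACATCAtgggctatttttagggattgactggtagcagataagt
Klf6: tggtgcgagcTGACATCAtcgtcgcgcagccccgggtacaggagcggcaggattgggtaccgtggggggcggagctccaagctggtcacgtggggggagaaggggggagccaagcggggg
Dusp1: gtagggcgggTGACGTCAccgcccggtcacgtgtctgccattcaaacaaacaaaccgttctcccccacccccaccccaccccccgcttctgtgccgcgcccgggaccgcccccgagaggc
The 250 bases before the start site were searched on both strands, in 10 promoter entries of 8 of the 10 genes. Egr1 and Phlda1 were left out. Entries of the 10 genes on the chromosome of Egr1 were not used, whereas the shares over all promoters include that chromosome. The full palindrome TGACGTCA was found 143 bases before the start of Dusp1 and 29 bases before the second of 3 start sites of Maff. In all 32851 mouse promoters of the same length it was found in 1.55%. The form TGACNTCA, which includes the palindrome and was chosen after these promoters had been read, was also found 45 bases before the start of Jun, 119 bases before that of Klf6 and 45 bases before the third start site of Maff. It was found in 5 of the 10 entries and in 7.49% of all promoters. Those start sites of Maff, which supply 2 of the 5, lie downstream of another start site of the gene. Whether the bases before them are part of its transcript was not examined here, and they are not printed. The AP-1 site TGANTCA (6.75% of all promoters), the heat shock element form TTCNNGAA (7.17%) and the CArG box, to which serum response factor binds (1.47%), were found in 0 of the 10 entries. The other heat shock element form, GAANNTTC (6.69%), was found only in Jun and the EGR site GCGNGGGCG (4.7%) only in Maff, among these entries. A match describes letters and not binding. A count of 0 holds only for the 250 bases and the 8 genes searched. Sites further upstream, or in Egr1 or Phlda1, would not have been found.

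As a mean of the 4 times after heat, levels of these genes were higher than in the controls in both strains. Every call of heat against control among them was a rise. At 24 h in AKR/N, however, the changes ran from −0.98 to 1.10, and Egr1, Fos, Jun and Junb stood below their controls by mean level. The genes were chosen with earlier results of these data known. The shares of all probe sets beside the counts are therefore a scale and no test of the list. As a mean of the 4 times, 7 of the 10 rose in AKR/N, where 2.56% of all probe sets tested did so, and 9 of the 10 rose in C57BL/6, where 8.45% did. In AKR/N the calls numbered 2 of 10 at 8 h (0.107% of all probe sets), 7 at 10 h (2.67%), 4 at 12 h (3.14%) and 2 at 24 h (10.6%). In C57BL/6 they numbered 3 of 10 at 8 h (0.0893%), 8 at 10 h (4.05%), 9 at 12 h (7.61%) and 6 at 24 h (17.9%). The 10 genes had a median log2 change of 1.46, 1.95, 0.997 and 0.31 at 8, 10, 12 and 24 h in AKR/N, and of 1.31, 1.69, 1.83 and 1.66 at the same times in C57BL/6. The median over all probe sets lay between −0.04 and 0.09 in these comparisons. The comparisons within a strain share the same 2 control arrays, so a control that lies low raises all of them.

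Few probe sets of any gene passed at 8 h, and the calls at that time depended most on single arrays. At an unadjusted p under 0.05, 8 of the 10 genes were higher at 8 h in AKR/N and 8 in C57BL/6. The share of all probe sets at an unadjusted p was not counted. Such counts, here and below, therefore cannot be set against a background. Without either AKR/N 8 h array, 0 of the 10 were called at 8 h in AKR/N. Without C57BL/6 12 h replicate 2 the calls at 12 h in that strain numbered 4 of 10 (Maff, Klf6, Ier3 and Phlda1), and without replicate 1 they numbered 10. With the filter at the 60th percentile, which tests fewer probe sets, all 10 genes were called at 10 h in AKR/N, and with median centring 9 were. That filter also added Maff at 8 h (adjusted p = 0.0354), Jun at 12 h (adjusted p = 0.0408) and Klf6 at 12 h (adjusted p = 0.0382) in AKR/N, and Ier3 at 8 h (adjusted p = 0.0380) and Dusp1 at 10 h (adjusted p = 0.0333) in C57BL/6. Median centring gave 3 calls against 2 at 8 h in AKR/N and 5 against 3 at 8 h in C57BL/6. Fos (adjusted p = 0.0412) was among those added at 8 h in C57BL/6. Calls lost when 1 array was left out are named for each gene below.

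**Figure D1:**
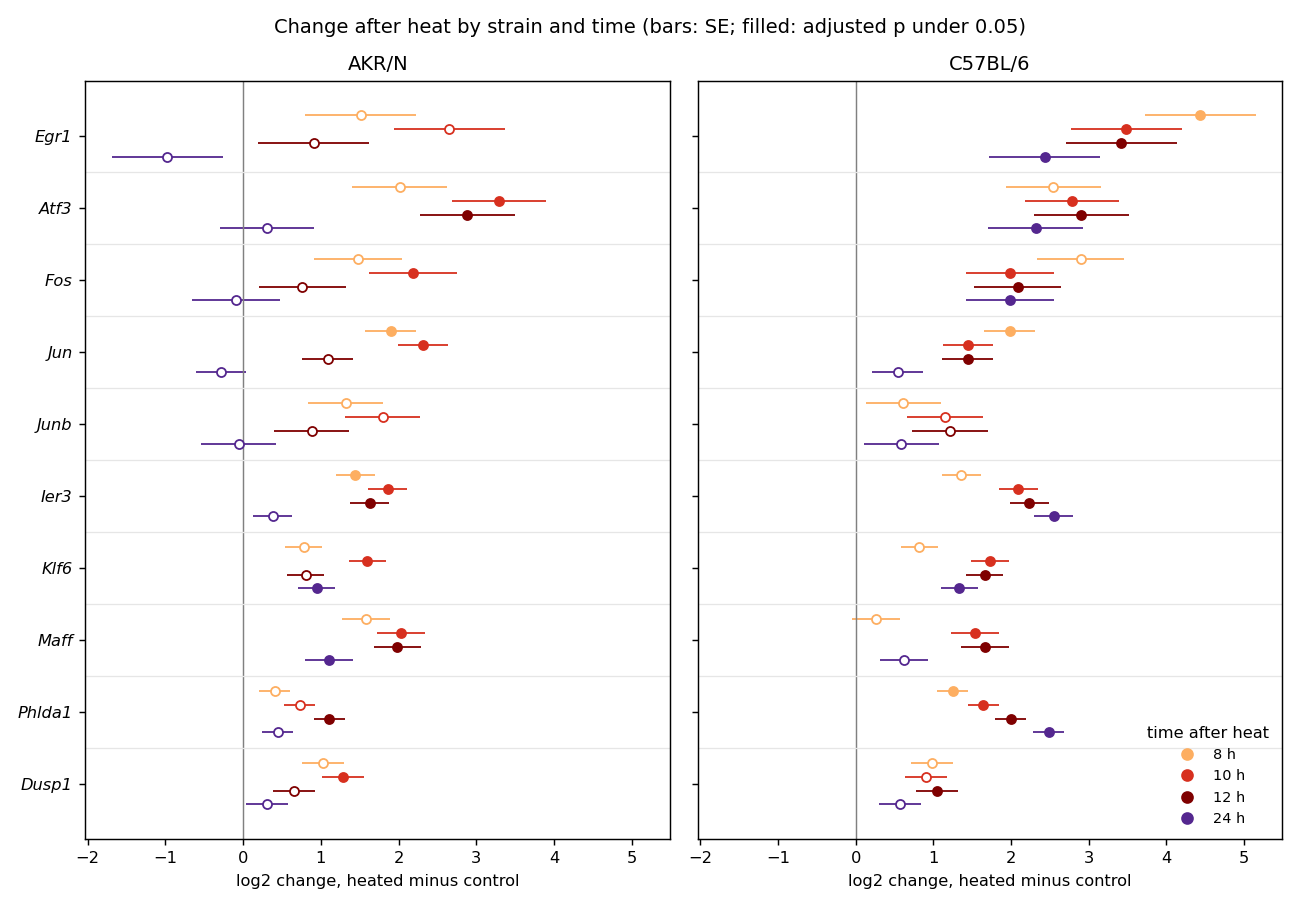
Log2 change of the brightest probe set of each gene, heated minus control, at 8, 10, 12 and 24 h, in AKR/N (left) and C57BL/6 (right); bars are standard errors of the limma fit and filled points have an adjusted p under 0.05. In AKR/N the points at 24 h lie at 0.45 or lower for 8 genes, with Klf6 (0.95) and Maff (1.10) called, whereas in C57BL/6 those of Ier3 (2.55) and Phlda1 (2.48) are the highest of their series.

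Both heated arrays lay above both control arrays for all 10 genes at 8, 10, 12 and 24 h in C57BL/6, where this held for 18.3, 27.5, 30.5 and 39.1% of all probe sets at those times. In AKR/N it held for 9 genes at 8 h (Egr1 overlapped), all 10 at 10 h, 9 at 12 h (Junb overlapped) and 4 at 24 h. The background in AKR/N was 19.6, 22.9, 24.6 and 32.2% at the same times. The 4 genes with both heated arrays above both controls at 24 h in AKR/N were Klf6, Maff, Phlda1 and Dusp1. Egr1 (116 and 199 against 461 and 214 in controls) and Jun (38.9 and 52.1 against 59.3 and 57.7) lay wholly below their controls there. The share of all probe sets that lay below was not counted.

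**Figure D2:**
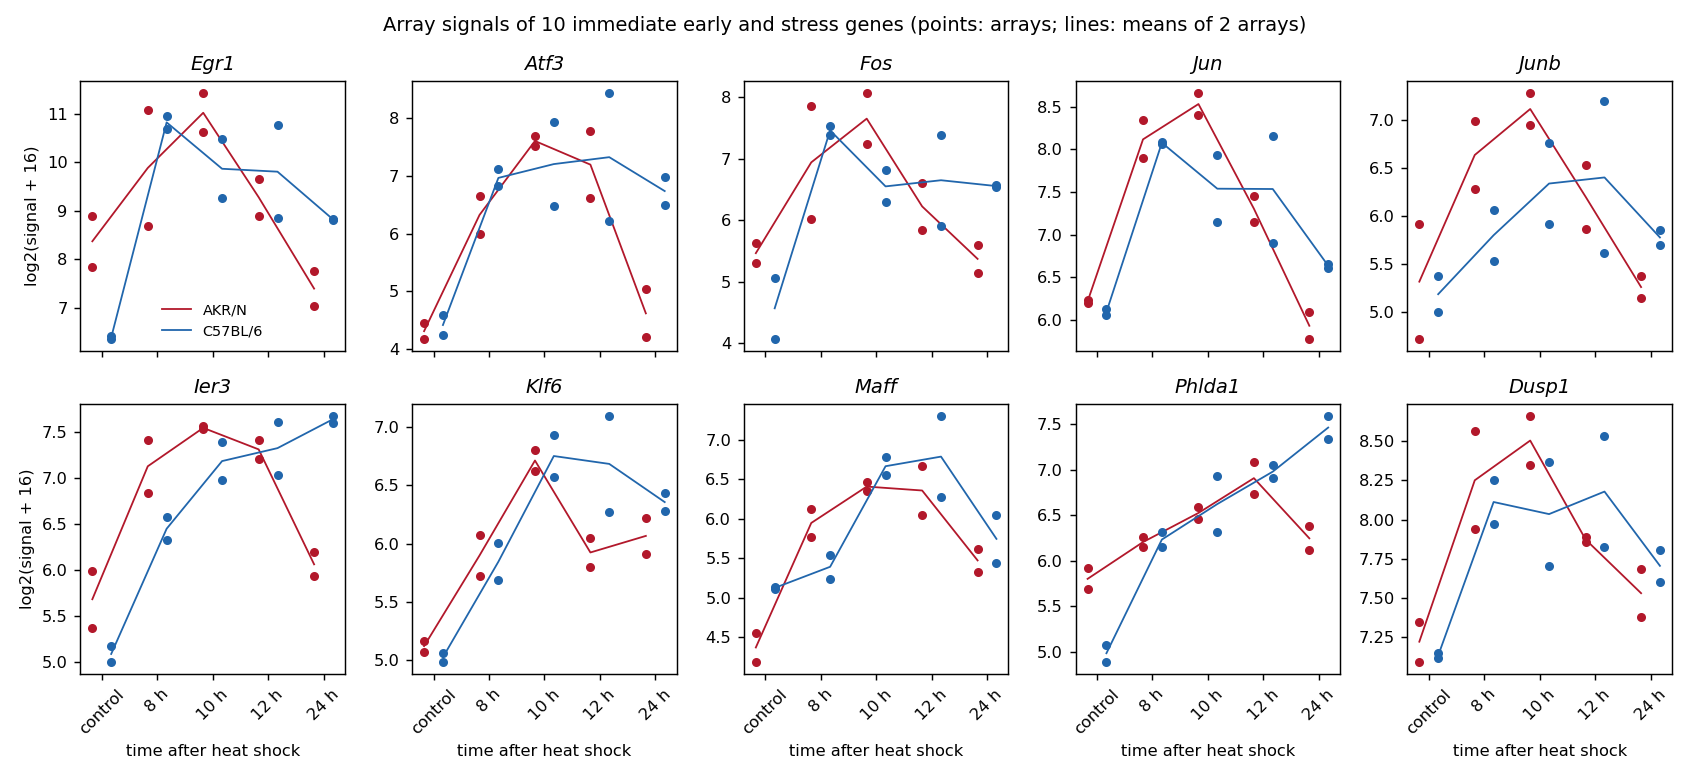
Log2(signal + 16) of the brightest probe set of each of the 10 genes in controls and at 8, 10, 12 and 24 h; points are arrays, lines join the means of 2 arrays, AKR/N is red and C57BL/6 blue. In Egr1, Fos and Jun the AKR/N line is highest at 10 h and the C57BL/6 line at 8 h, while Ier3 and Phlda1 are highest at 24 h in C57BL/6.

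Egr1 encodes a zinc finger transcription factor that is among the most widely used immediate early markers. In AKR/N its signals were 461 and 214 in controls, 2157 and 395 at 8 h, 1558 and 2729 at 10 h, 794 and 461 at 12 h, and 116 and 199 at 24 h. In C57BL/6 they were 66.0 and 69.5 in controls, 1970 and 1637 at 8 h, 596 and 1410 at 10 h, 446 and 1722 at 12 h, and 442 and 432 at 24 h. The C57BL/6 controls were the lowest group and close together, while both AKR/N controls were above them, and the AKR/N arrays at 24 h lay below their own controls. Egr1 rose in C57BL/6 at every time, by 4.44 at 8 h (SE 0.71, adjusted p = 0.0320, a 21.6-fold change), 3.48 at 10 h (adjusted p = 0.0125), 3.42 at 12 h (adjusted p = 0.00706) and 2.44 at 24 h (adjusted p = 0.0187). In AKR/N no time passed, with 1.51 at 8 h (adjusted p = 0.483), 2.65 at 10 h (adjusted p = 0.0566), 0.91 at 12 h (adjusted p = 0.501) and −0.98 at 24 h (adjusted p = 0.375). The AKR/N 10 h change did pass with the filter on dim probe sets at the 60th percentile in place of the 40th (adjusted p = 0.0338), with median centring (adjusted p = 0.0476), without either AKR/N 8 h array (adjusted p = 0.0294) and without either C57BL/6 12 h array (adjusted p = 0.0378). AKR/N controls were 1.98 above C57BL/6 controls (SE 0.71), which did not pass either (adjusted p = 0.147).

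The mean heat effect of Egr1 was 1.02 in AKR/N (SE 0.56, adjusted p = 0.326) and 3.44 in C57BL/6 (adjusted p = 0.00166). The C57BL/6 mean call was kept when any 1 array was left out, at 3.20 to 3.68. The 8 h call was lost without each of 8 arrays in turn (adjusted p up to 0.271), and the 10 h call without C57BL/6 control replicate 1, control replicate 2 or 10 h replicate 2 (up to 0.105). The 12 h call was lost without C57BL/6 12 h replicate 2 (2.46, adjusted p = 0.0741), and the 24 h call without either control or either 24 h array (up to 0.0809). By mean level the order began with AKR/N 10 h, C57BL/6 8 h and AKR/N 8 h, whose ranges overlapped, and ended with AKR/N 24 h and C57BL/6 control, whose ranges did not.

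Fos, Jun and Junb encode subunits of AP-1, in which a FOS protein pairs with a JUN protein to bind DNA. Fos signals in AKR/N were 33.3 and 23.6 in controls, 218 and 48.9 at 8 h, 135 and 252 at 10 h, 81.7 and 41.5 at 12 h, and 19.4 and 32.6 at 24 h. The C57BL/6 signals were 17.6 and 0.799 in controls, 170 and 151 at 8 h, 62.4 and 96.5 at 10 h, 44.1 and 152 at 12 h, and 79.4 and 77.1 at 24 h. The lowest array was C57BL/6 control replicate 2, and at 24 h both C57BL/6 arrays were above all AKR/N arrays of that time. In AKR/N Fos rose at 10 h by 2.19 (SE 0.56, adjusted p = 0.0478), a call lost without each of 16 arrays in turn (adjusted p up to 0.201), and the mean effect was 1.08 (SE 0.45, adjusted p = 0.184). In C57BL/6 it rose by 1.98 at 10 h (adjusted p = 0.0488), 2.08 at 12 h (adjusted p = 0.0250), 1.99 at 24 h (adjusted p = 0.0156) and 2.24 as a mean (adjusted p = 0.00474), while the 8 h change of 2.89 did not pass (adjusted p = 0.108).

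All of these C57BL/6 calls of Fos depended on control replicate 2. Without it the mean effect was 1.74 (adjusted p = 0.119) and the 12 h and 24 h calls were lost as well. The 12 h call was also lost without C57BL/6 12 h replicate 2 (1.34, adjusted p = 0.216), the 24 h call without either 24 h array (adjusted p up to 0.145) and the 10 h call without each of 16 arrays (up to 0.295). With a pseudocount of 1 in place of 16, the mean effect of Fos in C57BL/6 was 4.05.

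Jun was read by 2 probe sets. On the brighter one, the AKR/N signals were 59.3 and 57.7 in controls, 308 and 222 at 8 h, 323 and 388 at 10 h, 160 and 126 at 12 h, and 38.9 and 52.1 at 24 h. The C57BL/6 signals were 50.9 and 53.9 in controls, 252 and 256 at 8 h, 126 and 228 at 10 h, 104 and 271 at 12 h, and 85.1 and 82.1 at 24 h. AKR/N 10 h was the highest group with no overlap with the next, and AKR/N 24 h was the lowest, overlapping C57BL/6 controls. In AKR/N Jun rose by 1.90 at 8 h (SE 0.33, adjusted p = 0.0476) and 2.31 at 10 h (adjusted p = 0.00273), with 1.09 at 12 h (adjusted p = 0.0684) and −0.28 at 24 h (adjusted p = 0.589) not passing. In C57BL/6 it rose by 1.98 at 8 h (adjusted p = 0.0375), 1.44 at 10 h (adjusted p = 0.0192) and 1.44 at 12 h (adjusted p = 0.0107), with 0.54 at 24 h (adjusted p = 0.238). The mean effects were 1.25 in AKR/N (SE 0.26, adjusted p = 0.0198) and 1.35 in C57BL/6 (SE 0.26, adjusted p = 0.00369).

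The AKR/N 10 h call of Jun was kept when any 1 array was left out. The others were not: the mean calls were lost without either control of the strain (adjusted p up to 0.174 in AKR/N and 0.0540 in C57BL/6), and the 8 h calls without each of 16 arrays in AKR/N (up to 0.286) and 14 in C57BL/6 (up to 0.298). In C57BL/6 the 10 h call was lost without either control or 10 h replicate 2 (up to 0.156), and the 12 h call without either control or 12 h replicate 2 (0.81 without the last, and adjusted p up to 0.0980). The dimmer probe set changed by 1.84 in AKR/N (adjusted p = 0.0101) and 2.05 in C57BL/6 (adjusted p = 0.00147) as a mean. It differed from the brighter one at 24 h in C57BL/6, where it passed with 1.47 (adjusted p = 0.0148) from 129 and 107 in heated testes against 34.7 and 29.5 in controls.

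Junb was the gene with no call in any comparison of heat with all arrays and the settings given above. Its AKR/N signals were 44.4 and 10.4 in controls, 111 and 61.7 at 8 h, 108 and 139 at 10 h, 76.8 and 42.4 at 12 h, and 19.4 and 25.7 at 24 h. The C57BL/6 arrays read 16.1 and 25.5 in controls, 51.0 and 30.5 at 8 h, 44.4 and 92.6 at 10 h, 32.9 and 130 at 12 h, and 36.0 and 42.0 at 24 h. The AKR/N controls were far apart, and every neighbour in the order of the 10 groups overlapped the next. The mean effect was 0.98 in AKR/N (SE 0.38, adjusted p = 0.164) and 0.89 in C57BL/6 (adjusted p = 0.135), and the largest single change was 1.79 at 10 h in AKR/N (SE 0.48, adjusted p = 0.0567). That change passed when probe sets were filtered at the 60th percentile in place of the 40th (adjusted p = 0.0337) and with median centring (adjusted p = 0.0416). Without C57BL/6 12 h replicate 1, Junb was called at 12 h in C57BL/6 (2.004, adjusted p = 0.0184) and as a mean in that strain (1.09, adjusted p = 0.0339), and its 10 h change in AKR/N passed without either C57BL/6 12 h array (adjusted p = 0.0267).

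Atf3 encodes a stress-induced factor of the ATF and CREB family, which can pair with JUN. In AKR/N its signals were 2.08 and 5.84 in controls, 84.3 and 48.0 at 8 h, 190 and 168 at 10 h, 203 and 82.1 at 12 h, and 2.42 and 16.9 at 24 h. Those of C57BL/6 were 2.91 and 8.19 in controls, 96.9 and 122 at 8 h, 73.4 and 227 at 10 h, 58.5 and 329 at 12 h, and 110 and 74.3 at 24 h. All 4 controls and both AKR/N arrays at 24 h lay under a signal of 17.5, the level set as the threshold for dim probe sets, so the true folds may be larger than those given. Atf3 rose by 3.29 at 10 h (SE 0.61, adjusted p = 0.0113) and 2.88 at 12 h (adjusted p = 0.0171) in AKR/N, against 2.79 (adjusted p = 0.0168) and 2.91 (adjusted p = 0.00720) in C57BL/6. At 24 h the change was 0.31 in AKR/N (adjusted p = 0.770) and 2.32 in C57BL/6, where it passed (adjusted p = 0.0103). At 8 h it was 2.01 in AKR/N and 2.55 in C57BL/6, and neither passed (adjusted p = 0.246 and 0.232).

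As a mean, Atf3 rose by 2.12 in AKR/N (SE 0.48, adjusted p = 0.0299) and 2.64 in C57BL/6 (adjusted p = 0.00292). The AKR/N mean call was lost without either control or 24 h replicate 2 (adjusted p up to 0.249), the 10 h call without control replicate 1 or either 10 h array (up to 0.0986), and the 12 h call without either control or 12 h replicate 1 (up to 0.151). The C57BL/6 mean, 12 h and 24 h calls were lost without control replicate 1 (0.0531 for the mean), and the 12 h call also without 12 h replicate 2 (1.80, up to 0.0694). The 24 h call was also lost without 24 h replicate 1 (up to 0.0760), and the 10 h call without either control or 10 h replicate 2 (up to 0.139). A pseudocount of 1 gave mean effects of 3.67 in AKR/N and 4.28 in C57BL/6.

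Maff encodes a small MAF protein, which lacks an activation domain of its own and pairs with CNC factors such as NRF2 and with BACH1. In AKR/N its signals were 7.44 and 2.31 in controls, 53.9 and 38.5 at 8 h, 65.6 and 72.3 at 10 h, 85.9 and 50.02 at 12 h, and 33.0 and 24.3 at 24 h. The signals of C57BL/6 were 18.5 and 19.3 in controls, 21.8 and 30.7 at 8 h, 77.8 and 93.8 at 10 h, 61.2 and 142 at 12 h, and 50.4 and 27.4 at 24 h. AKR/N controls were the lowest group, under the threshold for dim probe sets and apart from the C57BL/6 controls. Maff rose in AKR/N by 2.03 at 10 h (SE 0.31, adjusted p = 0.00400), 1.99 at 12 h (adjusted p = 0.00363), 1.10 at 24 h (adjusted p = 0.0250) and 1.67 as a mean (adjusted p = 0.00412). The 8 h change in AKR/N was 1.57 (adjusted p = 0.0708). In C57BL/6 Maff rose by 1.54 at 10 h (adjusted p = 0.0116), 1.66 at 12 h (adjusted p = 0.00364) and 1.02 as a mean (adjusted p = 0.0122), with 0.27 at 8 h (adjusted p = 0.907) and 0.62 at 24 h (adjusted p = 0.149).

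The mean and 10 h calls of Maff in AKR/N and the 12 h call in C57BL/6 were kept when any 1 array was left out. The AKR/N 12 h call was lost without 12 h replicate 1 (adjusted p = 0.0568) and the 24 h call without either control or either 24 h array (up to 0.139). In C57BL/6 the mean call was lost without either control (up to 0.111) and the 10 h call without either control or 10 h replicate 2 (up to 0.0795). A pseudocount of 1 gave a mean effect of 3.25 in AKR/N.

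Klf6 encodes a zinc finger factor of the Krüppel-like family, which is induced by tissue injury. Among the 10 genes it was the only one called at 24 h in both strains. On its brightest probe set the AKR/N signals were 19.9 and 17.6 in controls, 51.5 and 36.7 at 8 h, 82.6 and 95.7 at 10 h, 50.3 and 39.6 at 12 h, and 44.1 and 58.6 at 24 h. The C57BL/6 signals were 17.4 and 15.7 in controls, 35.4 and 48.2 at 8 h, 79.1 and 106 at 10 h, 61.2 and 121 at 12 h, and 61.5 and 70.6 at 24 h. Every heated array lay above every control array in both strains. Klf6 rose in AKR/N by 1.60 at 10 h (SE 0.24, adjusted p = 0.00377), 0.95 at 24 h (adjusted p = 0.0152) and 1.03 as a mean (adjusted p = 0.0112), with 0.81 at 12 h (adjusted p = 0.0662) and 0.78 at 8 h (adjusted p = 0.254). In C57BL/6 it rose by 1.73 at 10 h (adjusted p = 0.00198), 1.66 at 12 h (adjusted p = 0.00108), 1.33 at 24 h (adjusted p = 0.000852) and 1.39 as a mean (adjusted p = 0.000635), with 0.82 at 8 h (adjusted p = 0.374).

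The C57BL/6 calls of Klf6 and its 10 h call in AKR/N were kept when any 1 array was left out. In AKR/N the mean call was lost without either control (adjusted p up to 0.119) and the 24 h call without either control or 24 h replicate 2 (up to 0.141). Klf6 has 4 more probe sets. The first changed by 1.19 in AKR/N (adjusted p = 0.00331) and 0.92 in C57BL/6 as a mean and passed in both, and the second changed by 0.82 (adjusted p = 0.0242) and 1.22 and passed in both. At 24 h in AKR/N they changed by 0.74 (adjusted p = 0.0235) and 0.48 (adjusted p = 0.149). The third had signals of 2.06 to 40.1 and no call, with 0.998 at 24 h in C57BL/6 (adjusted p = 0.0525) and −0.19 at 24 h in AKR/N. The last was not tested, with signals of 1.27 to 16.7.

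Ier3 encodes a short-lived protein that influences cell survival and ERK signalling. In AKR/N its signals were 47.9 and 25.5 in controls, 98.9 and 155 at 8 h, 173 and 169 at 10 h, 155 and 132 at 12 h, and 45.2 and 57.2 at 24 h. In C57BL/6 they were 16.2 and 20.1 in controls, 79.5 and 64.2 at 8 h, 110 and 153 at 10 h, 116 and 180 at 12 h, and 179 and 189 at 24 h. C57BL/6 24 h was the highest of the 10 groups with no overlap with the next, whereas AKR/N 24 h overlapped its controls. Ier3 rose in AKR/N by 1.44 at 8 h (SE 0.25, adjusted p = 0.0476), 1.86 at 10 h (adjusted p = 0.00215) and 1.63 at 12 h (adjusted p = 0.00349), but the 24 h change of 0.38 did not pass (adjusted p = 0.320). In C57BL/6 the 8 h change of 1.36 did not pass (adjusted p = 0.0799), and Ier3 rose by 2.10 at 10 h (adjusted p = 0.000842), 2.24 at 12 h (adjusted p = 0.000231) and 2.55 at 24 h (adjusted p = 1.36e-05). The mean effect was 1.33 in AKR/N (adjusted p = 0.00454) and 2.06 in C57BL/6 (adjusted p = 8.38e-05). The C57BL/6 calls and the AKR/N 10 h and 12 h calls were kept when any 1 array was left out, while the AKR/N mean call was lost without control replicate 2 (adjusted p = 0.0591) and the 8 h call without each of 18 arrays (up to 0.346).

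Phlda1 encodes a pleckstrin homology-like protein linked to apoptosis. In AKR/N its signals were 35.5 and 44.3 in controls, 60.9 and 54.9 at 8 h, 72.1 and 80.4 at 10 h, 120 and 90.5 at 12 h, and 53.4 and 67.1 at 24 h. In C57BL/6 they were 17.7 and 13.7 in controls, 63.6 and 55.1 at 8 h, 63.5 and 106 at 10 h, 117 and 104 at 12 h, and 146 and 177 at 24 h. The level in C57BL/6 was lowest in controls and highest at 24 h, in each case apart from the neighbouring group, while the heated levels of AKR/N and C57BL/6 at 8, 10 and 12 h overlapped. Phlda1 rose in C57BL/6 at all 4 times, by 1.25 at 8 h (SE 0.20, adjusted p = 0.0306), 1.64 at 10 h (adjusted p = 0.000895), 1.998 at 12 h (adjusted p = 0.000111) and 2.48 at 24 h (adjusted p = 4.87e-06). In AKR/N it rose at 12 h by 1.11 (adjusted p = 0.00785) and as a mean by 0.67 (SE 0.16, adjusted p = 0.0341), with 0.40 at 8 h (adjusted p = 0.503), 0.73 at 10 h (adjusted p = 0.0609) and 0.45 at 24 h (adjusted p = 0.138).

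The C57BL/6 mean effect of Phlda1 was 1.84 (adjusted p = 4.2e-05), and the mean, 10, 12 and 24 h calls were kept when any 1 array was left out. Its 8 h call was lost without either control or either 8 h array (adjusted p up to 0.350). In AKR/N the 12 h call was lost without control replicate 1 or 12 h replicate 1 (up to 0.0892), and the mean call without either control, either 8 h array, 10 h replicate 2, 12 h replicate 1 or 24 h replicate 2 (up to 0.301).

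Dusp1 encodes a phosphatase that switches off the MAP kinases p38, JNK and ERK. In AKR/N its signals were 147 and 121 in controls, 362 and 229 at 8 h, 310 and 389 at 10 h, 221 and 216 at 12 h, and 150 and 190 at 24 h. Those of C57BL/6 were 126 and 123 in controls, 289 and 235 at 8 h, 193 and 314 at 10 h, 211 and 355 at 12 h, and 178 and 208 at 24 h. Heated arrays lay above the controls of their strain at every time, and the controls of the strains overlapped. Dusp1 rose in AKR/N by 1.28 at 10 h (SE 0.27, adjusted p = 0.0215) and by 0.82 as a mean (adjusted p = 0.0491), and in C57BL/6 by 1.05 at 12 h (adjusted p = 0.0202) and 0.87 as a mean (adjusted p = 0.0139). The 8 h changes of 1.03 in AKR/N (adjusted p = 0.197) and 0.98 in C57BL/6 (adjusted p = 0.342) did not pass, nor did 0.31 in AKR/N (adjusted p = 0.464) and 0.57 in C57BL/6 (adjusted p = 0.128) at 24 h. The AKR/N mean call was lost without each of 15 arrays (adjusted p up to 0.251), and the 10 h call without either control or either 10 h array (up to 0.109). In C57BL/6 the mean call was lost without either control (up to 0.130) and the 12 h call without either control or 12 h replicate 2 (0.69 without the last, up to 0.180).

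The next comparison asked whether the response differed between the strains. The clearest difference was at 24 h, where Ier3 and Phlda1 were not called in AKR/N testes and had their highest levels in C57BL/6 testes. In unheated testes only Phlda1 was called among the 10 genes, with 35.5 and 44.3 in AKR/N against 17.7 and 13.7 in C57BL/6, a difference of 0.82 (SE 0.20, adjusted p = 0.0311), where 2.18% of all probe sets were higher in AKR/N. That call was lost with median centring (0.73, adjusted p = 0.0774), with quantile normalization (0.75, adjusted p = 0.0578) and without each of the 4 control arrays in turn (0.70 to 0.93, adjusted p up to 0.206). Ier3 differed by 0.59 (adjusted p = 0.221), Fos by 0.90 (adjusted p = 0.447) and Maff by −0.75 (adjusted p = 0.206) in controls. With a pseudocount of 1 the difference of Maff was −1.91 and was called (adjusted p = 0.0494), and that of Phlda1 was 1.30. At an unadjusted p under 0.05, 3 of the 10 genes were higher and 1 was lower in AKR/N controls.

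As a mean of the 4 times, the heat effect differed between the strains in 0 of the 10 genes by limma (0.00357% of all probe sets), and in 3 at an unadjusted p under 0.05, all lower in AKR/N. The differences were −1.17 for Phlda1 (SE 0.22, adjusted p = 0.0964), −2.42 for Egr1 (SE 0.80, adjusted p = 0.246) and −0.73 for Ier3 (adjusted p = 0.315). The moderated F test for a difference at any time called 0 of the 10 (0.0786% of all probe sets), with adjusted p = 0.0733 for Ier3 and Phlda1, and 4 had an unadjusted p under 0.05. With the filter at the 60th percentile, which tests fewer probe sets, 1 gene was called for the mean and 2 at any time.

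At single times, comparisons added after the data had been seen, the strain difference was called in 0 of the 10 genes at 8 h (0% of all probe sets), 0 at 10 h (0.118%), 0 at 12 h (0%) and 2 at 24 h (0.775%). At an unadjusted p under 0.05 there were 1 higher and 2 lower in AKR/N at 8 h, 1 lower at 10 h, 3 lower at 12 h and 5 lower at 24 h. The 24 h difference was −2.17 for Ier3 (SE 0.35, adjusted p = 0.0264) and −2.04 for Phlda1 (SE 0.28, adjusted p = 0.0132). The difference of Ier3 lay between −2.75 and −2.04 in the 7 other settings, each of which called it. That of Phlda1 lay between −2.71 and −1.91 and was likewise called in all 7. For Egr1 it was −3.41 (SE 1.01, adjusted p = 0.115), for Fos −2.08 (adjusted p = 0.203) and for Atf3 −2.01 (adjusted p = 0.257), and these did not pass. Maff at 8 h, 1.31 (SE 0.44, adjusted p = 0.640), ran the other way.

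The Ier3 difference was no longer called without AKR/N control replicate 1, AKR/N 24 h replicate 1, either C57BL/6 control or either C57BL/6 24 h array, where it lay within −2.48 to −1.86 (adjusted p up to 0.108). The Phlda1 difference was no longer called without AKR/N control replicate 1, AKR/N 24 h replicate 1, either C57BL/6 control or C57BL/6 24 h replicate 1, within −2.17 to −1.91 (adjusted p up to 0.0895). The unheated levels of Phlda1 themselves stood 0.82 apart, as given above.

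**Figure D3:**
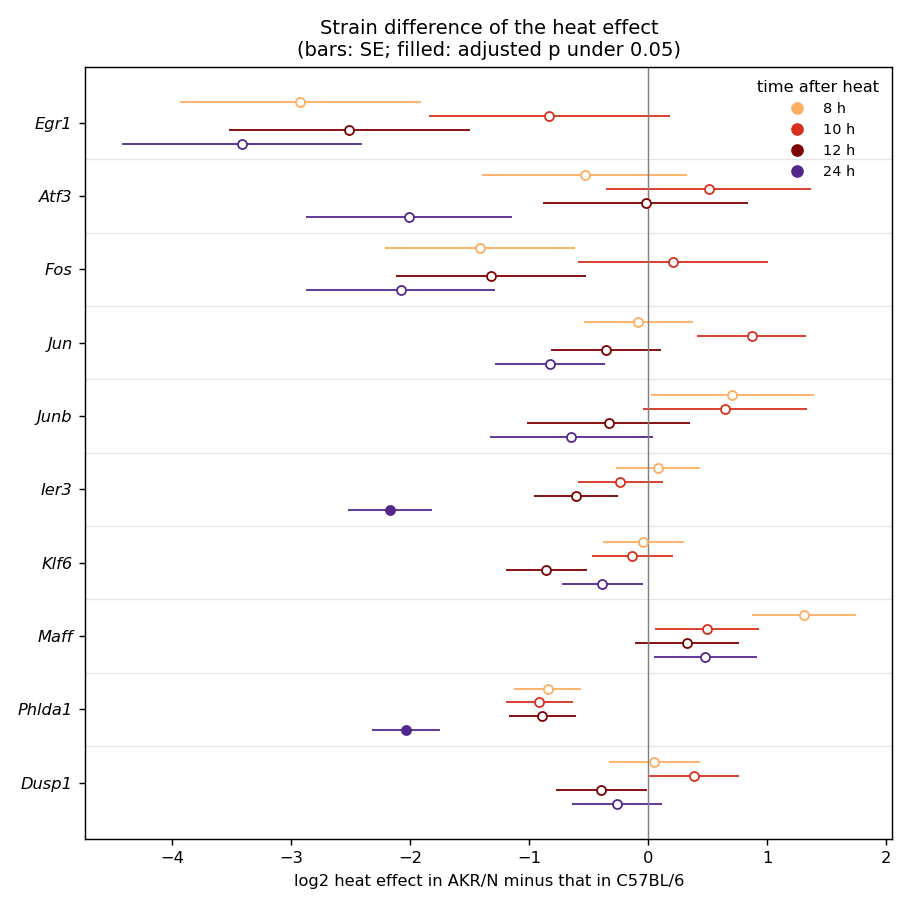
Difference of the log2 heat effect between strains, AKR/N minus C57BL/6, for each of the 10 genes at 8, 10, 12 and 24 h; bars are standard errors and filled points have an adjusted p under 0.05. Only Ier3 (−2.17) and Phlda1 (−2.04) at 24 h are filled, and Egr1, at −3.41 at 24 h, has wider bars than the other genes at every time.

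Within AKR/N, 3 of the 10 genes were lower at 24 h than at 12 h, where 2.36% of all probe sets were. Atf3 fell by 2.57 (SE 0.61, adjusted p = 0.0243), Jun fell by 1.37 (SE 0.33, adjusted p = 0.0248) and Ier3 fell by 1.25 (SE 0.25, adjusted p = 0.0115). Each call was lost without AKR/N 12 h replicate 1, 24 h replicate 1 or 24 h replicate 2, with adjusted p up to 0.195 for Atf3, 0.163 for Jun and 0.0937 for Ier3. With a pseudocount of 1 the change of Atf3 was −4.06. In C57BL/6, limma called 0 of the 10 between 24 h and 12 h (2.32% of all probe sets were lower and 3.91% higher), and at an unadjusted p under 0.05 there were 1 higher and 2 lower. The smallest adjusted p there was that of Maff (−1.04, adjusted p = 0.0613). Without C57BL/6 12 h replicate 1, 2 were called, and without replicate 2, 0 were.

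Sums of cell type markers also differed between these samples. They add linear signals, so the brightest genes of a list weigh most. The summed signal of 10 macrophage and leukocyte markers, 1 of them under the threshold for dim probe sets, was 1180 to 1352 at 24 h against 761 to 842 in controls of AKR/N, and 883 to 913 at 24 h against 493 to 497 in controls of C57BL/6. That of 8 Sertoli cell markers, with Amh under the threshold on every array, was 8255 to 8322 at 24 h against 5577 to 5899 in AKR/N controls, and 8795 to 9170 at 24 h against 5039 to 5219 in C57BL/6 controls. The 6 endothelial markers summed to 178 to 226 at 24 h against 150 to 162 in AKR/N controls, and 250 to 263 at 24 h against 123 to 129 in C57BL/6 controls. The sums of these 3 lists were higher at 24 h than in controls in both strains. In the Sertoli list Clu alone read 3843 to 7365 across the arrays, and no other marker read above 858. The 5 peritubular myoid markers were also higher, at 1512 to 1833 at 24 h against 1083 to 1214 in AKR/N controls and 1396 to 1555 at 24 h against 1143 to 1163 in C57BL/6 controls. Acta2 alone read 844 to 1454 across the arrays, and no other myoid marker read above 244.

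The 4 Leydig cell markers read here, of 7 listed, went differently. They summed to 4539 to 4831 at 10 h and 1873 to 2004 at 24 h against 3422 to 3646 in AKR/N controls, and to 3158 to 3168 at 10 h and 1382 to 1681 at 24 h against 1536 to 1757 in C57BL/6 controls. In both strains the 10 h sum was above that of the controls and the 24 h sum was below the 10 h sum. Cyp17a1 had the highest median signal of the 4, with a range of 404 to 3190 across the arrays. 

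The sums of germ cell markers differed as well. The 7 spermatogonial markers read here, of 8 listed, summed to 1674 to 1821 at 24 h against 2403 to 2490 in AKR/N controls, and to 1874 to 1974 at 24 h against 2538 to 2840 in C57BL/6 controls. The 8 pachytene spermatocyte markers summed to 20809 to 21286 at 24 h against 23030.2 to 23736 in AKR/N controls, and to 19485 to 20292 at 24 h against 22634 to 23318 in C57BL/6 controls. Both lists were thus lower at 24 h in each strain. Among the spermatogonial markers Dmrtb1 alone read 811 to 2290 across the arrays, and no other read above 346. Among the pachytene markers Ldhc read 8552 to 10535.5 and Pgk2 4034 to 6123 across the arrays, and no other read above 2710. The 7 round spermatid markers were higher at 24 h, with 10948 to 11387 against 8182 to 10642 in AKR/N controls and 13235 to 14277 against 12138 to 13109 in C57BL/6 controls. The 7 elongating spermatid markers were lower at 24 h in AKR/N, with 61669 to 62137 against 64700.0 to 64829 in controls, and higher in C57BL/6, with 68853 to 69866 against 57683 to 61743. The 6 neutrophil markers, 1 of them under the threshold, summed to 54.3 to 67.8 at 24 h against 88.0 to 147 in AKR/N controls, and overlapped in C57BL/6, with 117 to 134 at 24 h against 110.5 to 148 in controls. The part of any of these cells in the levels of the 10 genes was not tested.

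Relatives and partners of the 10 genes were read on the same arrays. These lists too were chosen with earlier results of these data known. Of 105 listed, 101 were on the array and 98 were tested. As a mean of the 4 times, 11 rose, 1 fell and 86 did not pass in AKR/N (median log2 change 0.20), and 35 rose, 1 fell and 62 did not pass in C57BL/6 (median 0.27). Over all probe sets, 2.56% rose and 1.34% fell in AKR/N, and 8.45% rose and 7.46% fell in C57BL/6, as a mean. The same shares belong beside the mean counts of the single lists below. With 1 array left out, the number that rose lay between 0 and 16 in AKR/N and between 8 and 37 in C57BL/6. All 12 calls in AKR/N and 29 of the 36 in C57BL/6 were lost in at least 1 such removal, each of them without at least 1 control of the strain. The 7 that were kept in C57BL/6 were Bach1, Btg2, Errfi1, Gadd45a, Nab1, Nfe2l2 and Rhob. At 8 h 0 passed in either strain by limma, where at an unadjusted p under 0.05 there were 17 higher and 5 lower in AKR/N and 11 higher and 3 lower in C57BL/6. At 10, 12 and 24 h, 14, 19 and 13 of the 98 rose in AKR/N, where 2.67, 3.14 and 10.6% of all probe sets did, and 0, 0 and 8 fell, where 1.14, 2.1 and 7.6% did. In C57BL/6, 23, 34 and 42 of the 98 rose at those times, where 4.05, 7.61 and 17.9% of all probe sets did, and 1, 1 and 8 fell, where 3.15, 7.04 and 13.1% did.

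Of 16 AP-1 and CREB/ATF partners, 0 were called in AKR/N (6 higher at an unadjusted p under 0.05), and 5 rose and 1 fell in C57BL/6. In C57BL/6 Jund, the third JUN protein, rose by 0.73 (adjusted p = 0.00507), Atf4, a factor of the integrated stress response, by 0.57 (adjusted p = 0.0200), and the C/EBP factors Cebpb and Cebpd by 0.995 and 1.12 (adjusted p = 0.0224 and 0.0248). In AKR/N these stood at 0.41, 0.51, 0.98 and 0.80, not passing. Jdp2, a repressor of AP-1, rose by 0.60 (adjusted p = 0.0259) and Ddit3, which encodes the stress factor CHOP, was the gene that fell, with a change of −0.41 (adjusted p = 0.0294), and both were picked out after their values had been seen. The C57BL/6 calls of Jund, Atf4, Cebpb, Cebpd and Jdp2 were lost without either control (adjusted p up to 0.297), and that of Ddit3 without either control or 8 h replicate 1 (up to 0.214). Other probe sets changed by 0.23 for Jund, 0.49 for Cebpb, 0.71 for Cebpd and 0.60 and 0.08 for Atf4 in C57BL/6. Of 5 EGR relatives and co-repressors 1 rose in AKR/N and 2 in C57BL/6. Nab1, a co-repressor of EGR factors, rose by 0.44 in AKR/N (adjusted p = 0.0439) and 0.71 in C57BL/6 (adjusted p = 0.00142). Egr2, a close relative of Egr1, rose by 0.73 in C57BL/6 (adjusted p = 0.0440), with 0.28 in AKR/N (adjusted p = 0.519), a call lost without each of 7 C57BL/6 arrays (up to 0.510), while the AKR/N call of Nab1 was lost without each of 16 arrays (up to 0.289). Of 5 genes of the serum response factor route tested, limma called 0 in either strain as a mean, with 1 lower in AKR/N and 0 in C57BL/6 at an unadjusted p under 0.05. At 24 h 1 of the 5 rose and 2 fell in each strain. Of all probe sets, 10.6% rose and 7.6% fell at that time in AKR/N, and 17.9% rose and 13.1% fell in C57BL/6.

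At 24 h, 3 of 11 MAP kinases tested rose and 1 fell in AKR/N, where 10.6% of all probe sets rose and 7.6% fell. In C57BL/6 7 of the 11 rose at 24 h, where 17.9% of all probe sets did. As a mean, 0 were called in AKR/N and 4 rose in C57BL/6. The 4 were Mapk14 (0.59, adjusted p = 0.0414), which encodes p38 alpha, the MAP kinase kinases Map2k1 (0.50, adjusted p = 0.0257) and Map2k3 (0.49, adjusted p = 0.0217), and Braf (0.43, adjusted p = 0.0217). The calls of Map2k1, Map2k3 and Braf were lost without either C57BL/6 control (adjusted p up to 0.278) and that of Mapk14 without each of 10 arrays (up to 0.342). The 8 other probe sets of Braf lay between −0.32 and 0.31 in both strains and were not called, and the 3 others of Mapk14 lay between −0.04 and 0.47 in C57BL/6 and were not called. Of 9 MAP kinase phosphatases, the family of Dusp1, 1 rose in AKR/N and 3 in C57BL/6. Dusp6, which acts on ERK, rose by 0.71 in both strains (adjusted p = 0.0275 in AKR/N and 0.00847 in C57BL/6), and Dusp4 rose by 0.90 in C57BL/6 (adjusted p = 0.00517), with −0.08 in AKR/N. Dusp16, which acts on JNK and p38, was the third, at 0.50 (adjusted p = 0.0385). The C57BL/6 calls of Dusp4 and Dusp6 were lost without either control (up to 0.123), that of Dusp16 without each of 8 arrays (up to 0.217), and the AKR/N call of Dusp6 without either control, 8 h replicate 2 or 24 h replicate 2 (up to 0.189).

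Of 8 KLF family genes 1 fell in AKR/N and 2 rose in C57BL/6. Klf2, known from the endothelium, had a change of −0.70 in AKR/N (adjusted p = 0.0104) and −0.31 in C57BL/6 (adjusted p = 0.113), against the direction of Klf6. Klf13 rose by 0.56 in C57BL/6 (adjusted p = 0.0221), but its other probe set stood at −0.49 there, and the call was lost without C57BL/6 control replicate 2 (up to 0.333). Klf10 rose by 0.44 in C57BL/6 (adjusted p = 0.0479), a call lost without each of 14 arrays (up to 0.289). The AKR/N call of Klf2 was lost without either control (up to 0.107). Of 7 small MAF and CNC partners 1 rose in AKR/N and 2 in C57BL/6. Bach1, a repressor that pairs with small MAF proteins, rose by 0.97 in AKR/N (adjusted p = 0.0310) and 1.499 in C57BL/6 (adjusted p = 0.000965), and the AKR/N call was lost without either control or 24 h replicate 2 (up to 0.187). Nfe2l2, which encodes NRF2, rose by 0.71 in C57BL/6 (adjusted p = 0.00138), with 0.12 in AKR/N, and its other probe set stood at 0.89 in AKR/N (adjusted p = 0.057) and −0.30 in C57BL/6.

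Of 5 PHLDA and IER relatives 0 were called in AKR/N, and 2 rose in C57BL/6, Phlda3 by 0.78 (adjusted p = 0.0258) and Ier2 by 1.36 (adjusted p = 0.0198). The call of Phlda3 was lost without C57BL/6 control replicate 2 (up to 0.396) and that of Ier2 without either control (up to 0.212). The list of 32 other immediate early genes tested had 8 rises in AKR/N and 15 in C57BL/6, with medians of 0.52 and 0.58. Rhob, a small GTPase, rose by 0.88 in AKR/N (adjusted p = 0.0190) and 1.11 in C57BL/6 (adjusted p = 0.00155), and Errfi1, an inhibitor of the EGF receptor, by 0.83 (adjusted p = 0.0118) and 0.98 (adjusted p = 0.00135) in the same strains. Both AKR/N calls were lost without either control (up to 0.216 for Rhob and 0.127 for Errfi1). Btg2, an antiproliferative gene, and Gadd45a, a DNA damage gene, rose by 1.87 and 1.28 in C57BL/6 (adjusted p = 0.00153 and 0.000169), with 1.05 and 0.37 in AKR/N (adjusted p = 0.0682 and 0.144).

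**Figure D4:**
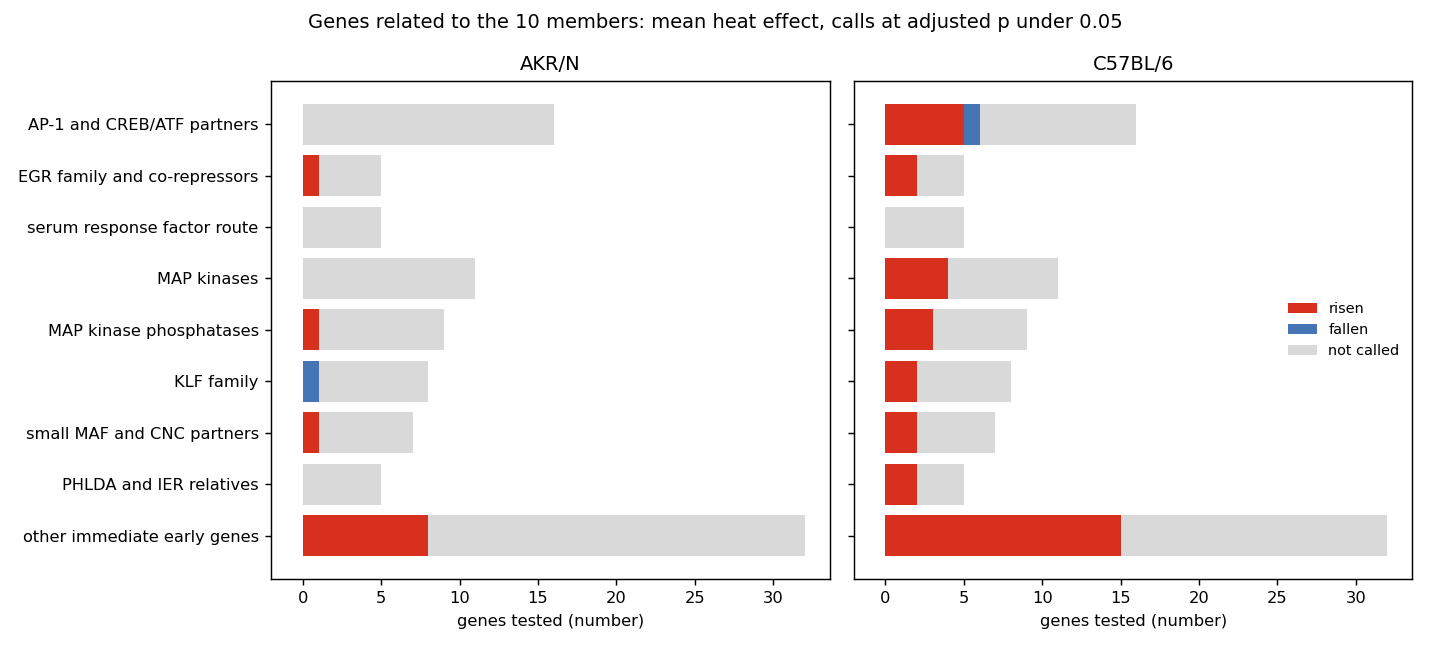
Number of genes tested in each of the lists of related genes, split by whether the mean heat effect rose, fell or was not called at an adjusted p of 0.05, in AKR/N and C57BL/6. The list of 32 other immediate early genes has 8 rises in AKR/N and 15 in C57BL/6, and the 5 genes of the serum response factor route have 0 in both. Of all probe sets tested, 2.56% rose in AKR/N and 8.45% in C57BL/6.

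Across the 20 arrays, the closest pairs among the 10 genes were Egr1 and Fos (Pearson r = 0.957) and Jun and Dusp1 (r = 0.92). Phlda1 followed Ier3 (r = 0.859) but not Jun (r = 0.336), and Klf6 followed Maff (r = 0.844). These values describe arrays that share groups, controls and scaling, and carry no test. Among all other genes tested, Hspa1a, which encodes an inducible HSP70, was among the 3 most alike for Jun (r = 0.955), Egr1 (r = 0.891) and Dusp1 (r = 0.856). Socs3, an inhibitor of cytokine signalling, was among the 3 for Fos (r = 0.92), Jun (r = 0.91), Egr1 (r = 0.895) and Dusp1 (r = 0.885). Atf3 was most like Hsph1, an HSP110 chaperone (r = 0.915), Junb most like Cebpb (r = 0.873), and Klf6 most like Itm2c (r = 0.88). Ier3 was most like Adamts1, a secreted protease (r = 0.94), Phlda1 most like Hspa1l, an HSP70 of the germ line (r = 0.916), and Maff most like Spty2d1 (r = 0.894).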

How the data were processed

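RNA of whole testes was hybridised to 20 arrays of a mouse 3' expression chip, with Trizol extraction and biotin label per the labels. The deposited values are probe-set signals, of the unit intensity, on a linear scale. How the authors summarised and scaled them is not given in the sources used here, and the mean without the top and bottom 2% was 125.001 on every array. The number of arrays limits the precision. Of 45101 probe sets, 64 controls, 932 with several genes and 9160 with no gene were left out. The other 34945 carry the symbols of the chip annotation. Probe sets were tested (28000, for 15785 genes) when the highest of 10 group means reached the 40th percentile of mean log2 (5.07, a signal of 17.5). Signals were taken as log2(signal + 16), with 1 mean per group fitted in limma 3.58.1 (R 4.3.3) followed by eBayes (prior df 3.84, residual df 10), and p-values were adjusted by Benjamini-Hochberg over all probe sets tested. The procedure was tested on simulated data. A gene is called by its brightest probe set. From each related list, up to 4 called genes with the smallest adjusted p in either strain qualified for naming, and for each gene the 3 with the highest correlation. Alternatives were a pseudocount of 1, no filter or a stricter one, median centring, quantile normalization, 1 probe set per gene, a replicate block and leaving out each array. The genes and lists were chosen with earlier results of these data known. Figures were drawn with matplotlib 3.10.9 in Python 3.11.15.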

Additional observations from a re-analysis of the deposited data

Results flagged for a closer look

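The heat effect of Ier3 at 24 h differed between the strains by −2.17 (SE 0.35, limma adjusted p = 0.0264), with signals of 45.2 and 57.2 in AKR/N at 24 h and 47.9 and 25.5 in AKR/N controls, and 179 and 189 in C57BL/6 at 24 h and 16.2 and 20.1 in C57BL/6 controls. That of Phlda1 differed by −2.04 (SE 0.28, adjusted p = 0.0132), with signals of 53.4 and 67.1 in AKR/N at 24 h and 35.5 and 44.3 in AKR/N controls, and 146 and 177 in C57BL/6 at 24 h and 17.7 and 13.7 in C57BL/6 controls. These are the calls of a test of the difference between the strains itself. No group had the 4 arrays needed to look for single arrays that stand apart.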

How the results depend on the processing

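No direction of a called change of the 10 genes turned under any alternative. Of 1260 gene values recomputed with all arrays, 1211 kept their side of the threshold, 24 lost and 25 gained a call, and of 3600 with 1 array left out 3368 kept it, 206 lost and 26 gained one. The 8 h counts moved from 2 of 10 genes in AKR/N to 1 with a pseudocount of 1 and 0 with no filter or 1 probe set per gene, and from 3 in C57BL/6 to 1 with a pseudocount of 1 and 5 with median centring. The AKR/N 10 h count, 7, was 10 with the filter at the 60th percentile and 9 with median centring. The count in controls, 1, was 2 with a pseudocount of 1, which added Maff, and 0 with median centring or quantile normalization. With the filter at the 60th percentile the strain difference of the heat effect had 1 call for the mean and 2 at any time, against 0. The 24 h against 12 h count in C57BL/6, 0, was 1 with that filter, median centring, quantile normalization or 1 probe set per gene. Leaving out each array gave 1 to 7, 0 to 3, 4 to 9, 1 to 6 and 0 to 2 calls in AKR/N for the mean, 8, 10, 12 and 24 h, and 5 to 10, 0 to 4, 3 to 9, 4 to 10 and 3 to 6 in C57BL/6. It gave 0 to 1 in controls, 0 to 2 for the strain difference at 24 h and 0 for the other strain differences, and 0 to 4 in AKR/N and 0 to 2 in C57BL/6 between 24 h and 12 h. Of 63 calls, 20 were kept in every such removal. The replicate numbers showed no consistent pairing of the arrays. Deviations correlated between groups with r of −0.243 to 0.251 in 45 pairs (median −0.00113, 3 over 0.1). These values cannot show whether some arrays were paired or shared a batch. With the replicate block the 8 h counts were 0 in AKR/N and 1 in C57BL/6. Single genes lost calls on the AKR/N mean of Dusp1 (adjusted p = 0.0687 with a pseudocount of 1, 0.0624 with no filter, 0.0596 with quantile normalization) and on Fos at 10 h in AKR/N (0.169, 0.0604 with no filter, 0.0573 with 1 probe set per gene) and C57BL/6 (0.0609 with no filter). Over all probe sets, the share of calls that were higher was 42.6% with median centring against 53.1% for the C57BL/6 mean, 32.8 against 52.0% at 12 h, 44.3 against 57.8% at 24 h, and 33.8 against 45.6% between controls. Probe sets called in all ranged from 644 to 1842 around 1093 for the AKR/N mean, 6 to 89 around 34 at 8 h, 414 to 1546 around 1068 at 10 h and 966 to 2332 around 1466 at 12 h, and from 14 to 36 around 25 at 8 h, 1238 to 3019 around 2015 at 10 h and 1086 to 2507 around 1743 between 24 h and 12 h in C57BL/6. For the strain difference they ranged from 1 to 46 around 1 for the mean, 5 to 141 around 22 at any time, 5 to 124 around 33 at 10 h and 59 to 662 around 217 at 24 h. With 2 arrays per group, changes of dim probe sets near 17.5 are the least certain.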
